A study of Oryza sativa with 6 samples.

Results

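The tonoplast intrinsic proteins (TIPs) of rice were followed through their transcripts on the 6 arrays of a comparison between wild-type and dst mutant shoots. Members were the probe sets whose single gene carries a TIP1 to TIP5 name, with or without the Os prefix, in the platform annotation or in the RefSeq gene table. This gave 8 genes, read by 11 probe sets, of 17905 genes with a probe set of their own and 57194 rice probe sets on the array. The gene table names 9 TIP genes, and the ninth, TIP5;1, has no probe set in the annotation used here. A further probe set that the annotation assigns to OsTIP3;1 together with a second gene was left out, and its signal was 148.3 to 297.2 on wild-type arrays and 227.3 to 291.8 on dst arrays. A probe set is a group of short probes read as 1 signal, and its signal cannot be set against that of another probe set as an amount of transcript.

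TIPs are water channels of the aquaporin superfamily that sit in the tonoplast, the membrane around the plant vacuole. Water crosses each subunit of their tetramer, and several isoforms are also known to let through ammonia, urea or hydrogen peroxide. They allow fast exchange of water between vacuole and cytosol, which buffers cell volume when water supply changes. In leaves and roots the TIP1 and TIP2 classes are the usual isoforms, while TIP3 proteins are known from the protein storage vacuoles of seeds.

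The wild type was the japonica cultivar Zhonghua11, and the mutant is given as the line dst with no allele or parent cultivar in its own strain label. DST, a zinc finger transcription factor, is known for its role in stomatal closure through hydrogen peroxide under drought and salt, and its own transcript was not analysed here. Shoots were taken at 25 days from seedlings kept at 26 °C during 11 h of light and 22 °C during 13 h of dark, with 3 biological replicates of each line and no stress treatment named. The labels do not say whether plants were pooled, and whole shoots mix cell types, so fewer cells of a type and less RNA per cell cannot be told apart.

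Per array, the rice probe sets had a median signal of 117.6 to 140.9, and precision is limited by the count of 6 arrays. The highest signal was 31461 on wild-type replicate 3 and 32620 on dst replicate 3, lower than on replicates 1 and 2, where it was 41451 to 43118. Most leaf marker probe sets were bright in both lines. On wild-type arrays the highest mean was 37979, from a set of the light-harvesting gene CAB2R. On dst arrays it was 36722, from a set of the Rubisco activase gene rca. The leaf gene RBCS1 was dim, with a wild-type mean of 66.5 and a dst mean of 70.4. A set of the Rubisco small subunit gene OsrbcS was dim as well, at 83.9 and 103. The other 9 of the 11 leaf probe sets, from CAB2R, OsrbcS and rca, had a mean over 1000. Among 16 seed probe sets only that of the globulin gene GLB did so, with 1500.1 to 1598.9 on wild-type arrays and 1157.0 to 1599.7 on dst arrays. Both pollen and anther markers had means of 131 or less. Of the root markers, the silicon channel gene OsNIP2;1 had a signal in shoots, 1303.2 to 1513.9 on wild-type arrays and 1397.6 to 1764.0 on dst arrays, and Lsi2, its efflux partner, stayed between 10.2 and 16.7 on all 6 arrays.

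None of the TIP probe sets changed in dst shoots after adjustment over the whole array. Signals of the 3 wild-type and the 3 dst arrays overlapped in all 11. The model was limma on log2 signals, fitted to the 34316 rice probe sets with a mean log2 signal at or above the 40th percentile, which is a signal of 70.5. Of the 11 TIP probe sets, 10 entered it. At an adjusted p under 0.05 it called 0 of these 10, beside 317 of 34316 over the array (0.924%), and 1 of the 10 had an unadjusted p under 0.05 (10.5% over the array). The adjusted p of the 10 ran from 0.282 to 0.976. The mean was higher in dst for 6 of the 10, against 52.8% of all tested probe sets. The median log2 change was 0.07 over these 10 and 0.04 over all 11, beside 0.02 over all tested probe sets. The lines were fully apart (all 3 dst arrays above, or all below, every wild-type array) in 0 of the 10 and in 16.6% of the tested probe sets.

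**Figure D1:**
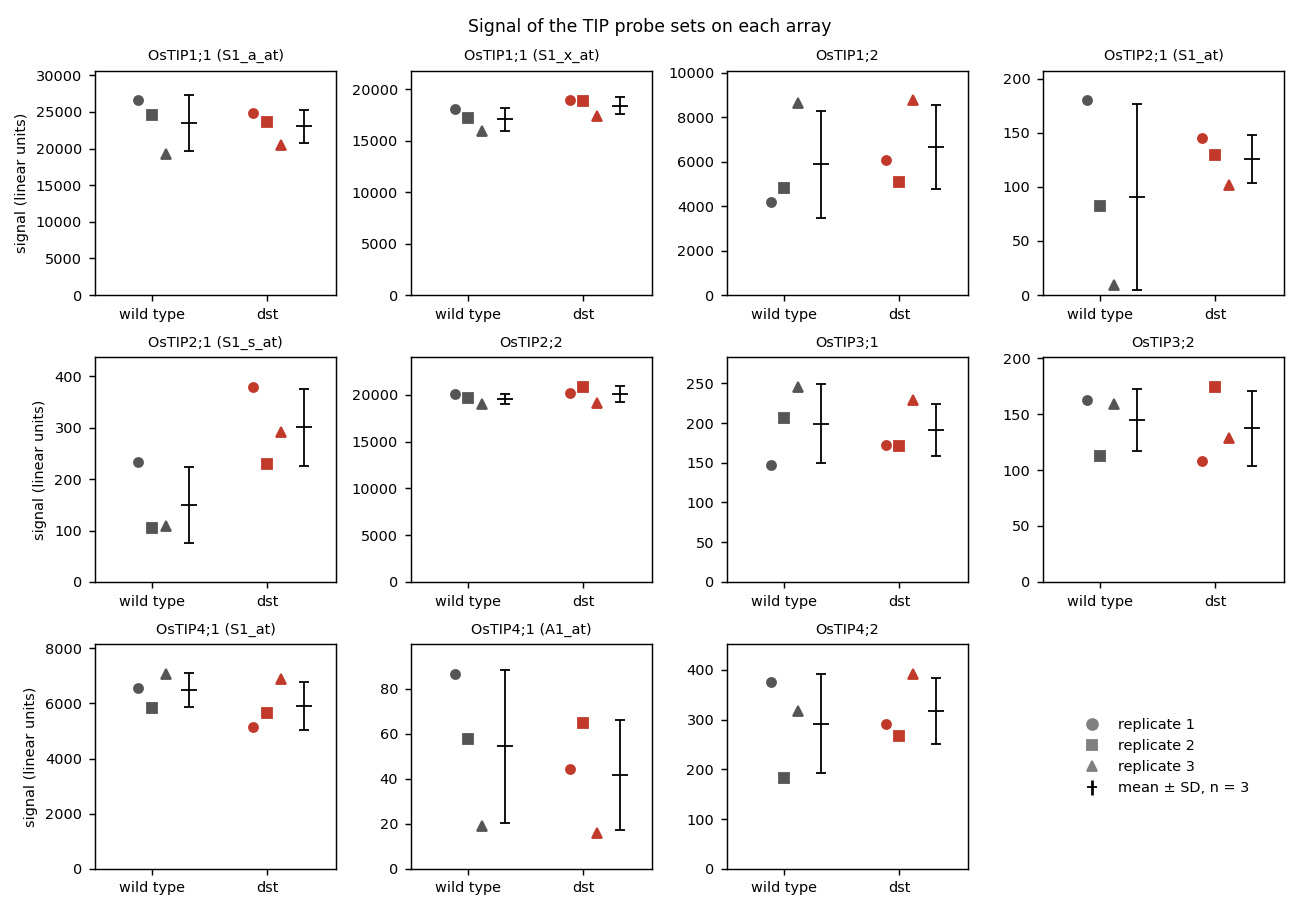
Signal in linear units (vertical axes, from 0) of the 11 TIP probe sets on each array, with wild type in grey, dst in red, 1 marker shape per replicate number, and the mean ± SD of 3 arrays as a black bar. Wild-type and dst points overlap in every panel, and in the OsTIP1;2 panel the third array of each line stands above its other arrays.

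OsTIP1;1 encodes a TIP1 isoform, a water channel of the vacuole in vegetative tissue, and was read by 2 probe sets with high signal. The first, its _a_at set, gave 26649.1, 24645.4 and 19290.2 in wild-type replicates 1 to 3, and 24908.6, 23629.3 and 20546.6 in dst replicates 1 to 3. The third array was the lowest of its line in both lines, and the dst values lay within the wild-type range. The log2 change was -0.02 ± 0.14 (SE), with a 95% interval of -0.34 to 0.29, which as a fold is 0.793 to 1.22 (adjusted p = 0.975 in limma). The second, its _x_at set, gave 18126.1, 17182.5 and 15935.5 in the wild type and 18982.1, 18884.5 and 17438.3 in dst. Here dst replicates 1 and 2 stood above all wild-type arrays and dst replicate 3 did not. Its log2 change was 0.11 ± 0.10 with an interval of -0.11 to 0.33. By the naming convention of Affymetrix, the ending _a_at marks a set that reads several transcripts of a gene, _s_at one that reads several transcripts which may come from related genes, and _x_at one in which some probes can also bind other sequences.

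OsTIP1;2, the other TIP1 gene, differed more between replicate numbers than between the lines. Its signal was 4187.3 and 4804.4 in wild-type replicates 1 and 2 and 8642.1 in replicate 3. In dst it was 6078.6 and 5101.7 in replicates 1 and 2 and 8772.7 in replicate 3. The third array of each line was the highest, and the third arrays of the wild type and of dst were close to each other. The means were 5878 ± 2414 in the wild type and 6651 ± 1901 in dst (SD, n = 3), and the log2 change was 0.22 ± 0.27 with an interval of -0.40 to 0.83 (adjusted p = 0.852 in limma). Replicates 1 and 2 gave 0.31 and the replicate 3 arrays gave 0.02. Without wild-type replicate 3 it was 0.53 and without dst replicate 3 it was -0.0032. With the third arrays as a block the SE was 0.102 and the adjusted p 0.386.

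OsTIP2;1 had the largest estimates among the TIPs in the fit, and neither of its probe sets passed. TIP2 proteins of Arabidopsis are known to carry ammonia as well as water. Its _s_at set gave 234.1, 105.4 and 108.5 in the wild type and 379.7, 230.1 and 292.5 in dst. Dst replicates 1 and 3 stood above all wild-type arrays, and dst replicate 2 lay just under wild-type replicate 1. The means were 149 ± 73.4 and 301 ± 75.1 (SD, n = 3). The log2 change was 1.08 ± 0.35, which as a fold is 2.12 with a 95% interval of 1.23 to 3.67. The unadjusted p was 0.0125 and the adjusted p 0.282 in limma. Over the alternative fits the log2 change stayed between 0.886 and 1.46, and the adjusted p ran from 0.0765, without wild-type replicate 1, to 0.663, without dst replicate 1.

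The second probe set of OsTIP2;1, its _at set, gave 180.5, 82.8 and 9.4 in the wild type and 145.3, 129.7 and 101.6 in dst. Its mean log2 signal was 5.70 in the wild type, which alone is under the filter, and 6.96 in dst. The set thus entered the fit only through its dst signals, and a filter at the 60th percentile left it out. The low wild-type mean came with replicate 3, since replicates 1 and 2 enclosed all dst values. Its log2 change was 1.26 ± 0.93 with an interval of -0.84 to 3.35 (adjusted p = 0.712 in limma), and 0.0225 without wild-type replicate 3. The residual SD was 1.57 on the log2 scale, beside a median of 0.27 over all tested probe sets. The first probe set kept a log2 change of 0.907 without that array.

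OsTIP2;2, the other TIP2 gene, was the steadiest of the tested TIPs. Its single probe set, an _x_at set, gave 20068.0, 19695.0 and 18998.1 in the wild type and 20214.7, 20876.7 and 19157.2 in dst. The third array was again the lowest of each line. The SD was 2.77% of the mean in the wild type and 4.32% in dst. The log2 change was 0.04 ± 0.09, with an interval of -0.18 to 0.25 (adjusted p = 0.941 in limma), so the interval held folds from 0.886 to 1.19.

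The seed-type genes gave low signals in shoots. OsTIP3;1 was at 146.6, 205.8 and 245.7 in the wild type and 172.4, 171.4 and 228.9 in dst, with a log2 change of -0.04 ± 0.28. The dst values lay inside the wild-type range. OsTIP3;2 was at 162.5, 112.7 and 159.1 in the wild type and 108.5, 174.5 and 128.7 in dst, with a log2 change of -0.09 ± 0.32. Both lines spanned nearly the same range. The intervals were -0.67 to 0.58 for the first and -0.81 to 0.64 for the second. No detection calls were used, so whether these signals stand above background is unknown.

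OsTIP4;1, of the TIP4 class, was read by 2 probe sets at very different signals. The bright set, S1_at in the plots, gave 6562.1, 5835.3 and 7084.1 in the wild type and 5160.8, 5668.4 and 6877.7 in dst. The third array was the highest of each line, and dst replicates 1 and 2 lay under all wild-type arrays while dst replicate 3 did not. The log2 change was -0.14 ± 0.13 with an interval of -0.44 to 0.15 (adjusted p = 0.776 in limma). The dim set, A1_at in the plots, was the one TIP set under the filter. It gave 86.8, 57.7 and 19.0 in the wild type and 44.3, 64.7 and 16.1 in dst, with the third array lowest in both lines. The plain difference of its log2 means was -0.35, with no test. The only other TIP gene measured, OsTIP4;2, gave 376.1, 182.1 and 317.4 in the wild type and 291.3, 267.1 and 392.2 in dst. Its log2 change was 0.16 ± 0.29 with an interval of -0.49 to 0.82. Wild-type replicate 2 was its lowest array, and its other values overlapped.

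The 95% interval lay within a 1.5-fold change in either direction for 4 of the 10 tested probe sets, those of OsTIP1;1, OsTIP2;2 and the bright set of OsTIP4;1. Together with OsTIP1;2 these are the 5 with a mean signal over 4000. The other 5 had means under 400, and for each of them the interval reached past a 1.5-fold change.

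**Figure D2:**
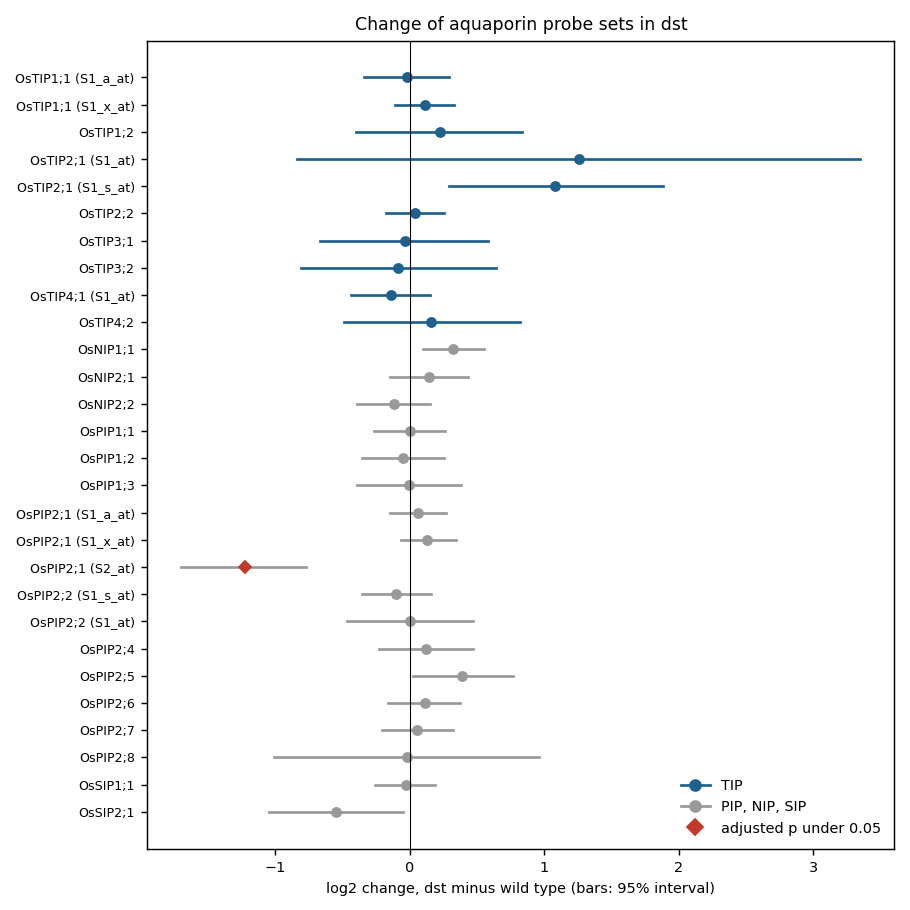
The log2 change between dst and wild type (horizontal axis, dst minus wild type) of the 10 tested TIP probe sets in blue and the 18 tested PIP, NIP and SIP probe sets in grey, as points with 95% intervals from limma, where the red diamond marks an adjusted p under 0.05. The 4 TIP sets with intervals within a 1.5-fold change lie close to 0, both OsTIP2;1 sets lie above 1 with long intervals, and the red diamond is a set of OsPIP2;1.

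Several TIP genes differed between replicate numbers in the same way in both lines. The third array was above both other arrays of its line, in the wild type and in dst, for 3 tested TIP probe sets, those of OsTIP1;2, OsTIP3;1 and the bright set of OsTIP4;1. Over the array 17.4% of tested probe sets did so. It was below both others in both lines for 4 tested TIP probe sets, those of OsTIP1;1, OsTIP2;2 and the _at set of OsTIP2;1, and 19.6% of tested probe sets did so. With 3 and 4 of 10, these counts describe the members and were not tested.

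OsTIP1;2 had the largest upward shift of the family. Replicate 3 stood above the mean of replicates 1 and 2 by 0.95 on the log2 scale in the wild type and by 0.66 in dst, which is 1.93-fold and 1.58-fold. At least the smaller of these shifts, upward in both lines, was seen in 1.54% of tested probe sets. After quantile normalization its shifts were 0.96 and 0.72. The shifts of the bright set of OsTIP4;1 were 0.20 and 0.35, and 14.1% of tested probe sets were shifted up in both lines by at least the smaller. OsTIP1;1 was shifted the other way in its _a_at set, by -0.41 and -0.24, and 11.7% of tested probe sets were shifted down in both lines by at least the smaller. After quantile normalization the shifts of that set were -0.09 and -0.04. Those of the _x_at set of the same gene turned from -0.15 and -0.12 to 0.07 and 0.05, and those of OsTIP2;2 from -0.07 and -0.10 to 0.22 and 0.09. The _at set of OsTIP2;1 stayed below, at -3.51 and -0.48. The highest signal was lower on both replicate 3 arrays as well, and the part of this in the falls of bright sets was not tested. The labels name no batch for the replicate 3 samples.

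**Figure D3:**
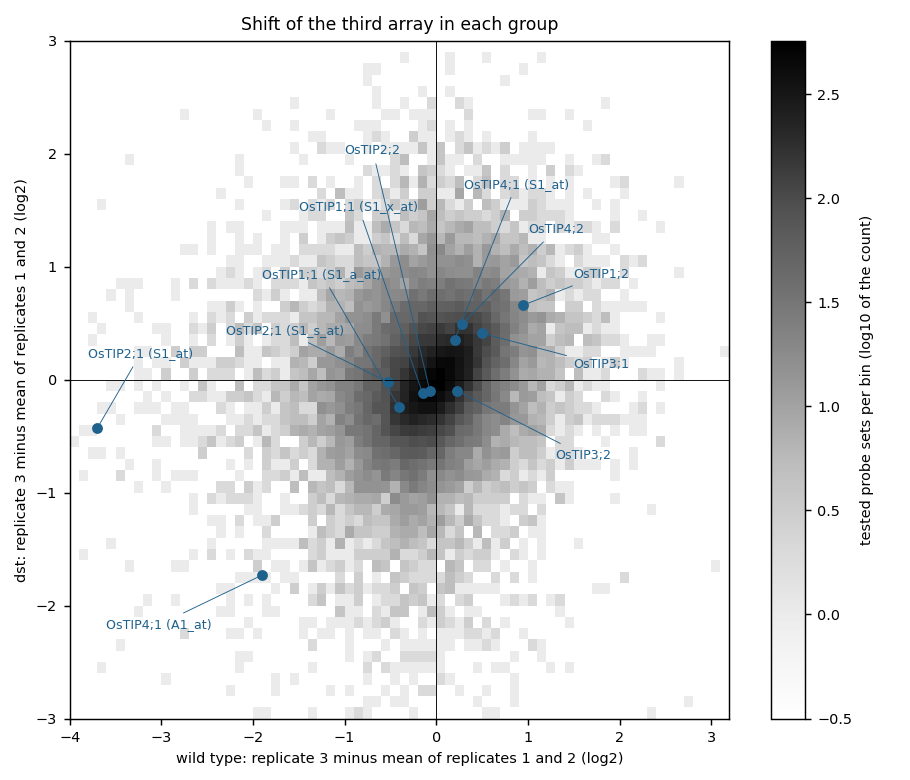
Log2 signal of the third array minus the mean of replicates 1 and 2, in the wild type (horizontal axis) and in dst (vertical axis), with the 11 TIP probe sets as blue points over the density of the tested probe sets in grey, where darker bins hold more probe sets. OsTIP1;2 lies at 0.95 and 0.66 in the upper right, both sets of OsTIP1;1 lie in the lower left near 0, and the _at set of OsTIP2;1 lies far to the left at -3.70.

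The named genes whose profile over the 6 arrays, centred on its own mean, was closest to the brightest TIP set, the _a_at set of OsTIP1;1, were OsPIP1;2, OsPAE1 and OsrcaA1. Their root mean square differences from it were 0.0262, 0.0293 and 0.0304 on the log2 scale, beside a median of 0.261 over 2738 probe sets of named genes. OsrcaA1 is another name of the leaf marker gene rca. Replicate 3 of OsPIP1;2 was shifted by -0.36 in the wild type and -0.27 in dst, and by -0.07 and -0.07 after quantile normalization. For the OsTIP2;1 set with the smallest p, the _s_at set, they were OsKCS20, OsNek1 and KIN10B, at 0.207, 0.245 and 0.261 beside a median of 0.711. A flat profile would differ by 0.163 from the OsTIP1;1 set and by 0.693 from this one. The genes named are the closest of 2738 sets, and their closeness was not tested.

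The other aquaporins have 20 probe sets for 17 genes, and 18 entered the fit. The plasma membrane intrinsic proteins (PIPs) move water across the cell membrane, the NIPs include channels for silicon and boron, and the SIPs are small channels known from internal membranes in Arabidopsis. Of these 18, 4 had an unadjusted p under 0.05 in limma (10.5% over the array). After adjustment 0 rose (0.393% over the array) and 1 fell (0.530%), the _at set of OsPIP2;1. That set had a signal of 926.9, 675.0 and 622.4 in the wild type and 355.2, 251.5 and 337.2 in dst. Its log2 change was -1.23 ± 0.21 (adjusted p = 0.0292 in limma). It passed in 8 of 16 alternative fits and in 0 of the 6 that leave out an array, with adjusted p from 0.00822 under median centring to 0.15 without the variance trend. Beside it the brighter _a_at and _x_at sets of the same gene had log2 changes of 0.06 and 0.13. The groups did not overlap in 5 of the 18 tested sets, against 0 of the 10 tested TIP sets and 16.6% of all tested probe sets. The member with the smallest p among the NIPs was OsNIP1;1, which gave 5525.8, 6036.1 and 5596.9 in the wild type and 7759.3, 7080.2 and 6662.3 in dst, all dst arrays above the wild type, with a log2 change of 0.32 ± 0.10 (adjusted p = 0.264 in limma). Among the SIPs it was OsSIP2;1, with 255.0, 293.8 and 236.7 in the wild type and 153.7, 188.8 and 194.7 in dst, at -0.55 ± 0.22 (adjusted p = 0.421 in limma). The brightest PIP, NIP and SIP sets, those of OsPIP2;2 (its _s_at set), OsNIP1;1 and OsSIP1;1, had log2 changes of -0.10, 0.32 and -0.03. The median log2 change was 0.00 over the 20 sets, and the difference between TIPs and other aquaporins was not tested.

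The lists of proteins that share the tonoplast with the TIPs held no call, where 0.924% were called over the array. The proton pump list, whose products energise the vacuole, held 1 gene, VATP-P1, with a log2 change of 0.00 and an interval of -0.22 to 0.22. Of 14 probe sets for 12 tonoplast carrier genes 0 passed in limma, and 0 had an unadjusted p under 0.05 (10.5% over the array), with a median log2 change of -0.03. The lines were fully apart in 4 of these 14, with 1 set higher and 3 lower in dst, against 16.6% over the array. The smallest p belonged to a set of OsTPC1, the vacuolar calcium-permeable cation channel gene, the _at set. It gave 2799.0, 2686.0 and 3072.5 in the wild type and 2596.9, 2314.3 and 2332.4 in dst, all dst arrays below the wild type. Its log2 change was -0.24 ± 0.11 (adjusted p = 0.476 in limma), and the second set of the gene overlapped between the lines at -0.10. The brightest carrier set, that of OsSUT2 (its _at set), a sucrose transporter gene, measured 0.14 ± 0.12.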

How the data were processed

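The deposited values are linear intensities, 1 for each probe set on each array, from an Affymetrix rice array hybridised with biotin-labelled total RNA, per the labels' protocols. The authors' software and scaling are not given in the labels. Each array had a mean of 500.0 once 2% of its values were trimmed from both ends, so a common scaling before deposit is likely.

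Signals were floored at 1 and converted to log2. Without the 187 controls and reporters, 57194 probe sets remained, of which 22436 have 1 gene in the platform annotation and 34316 passed the filter. Gene names came from that annotation and the RefSeq gene table of assembly ASM3414082v1. No build is named for the array, so no coordinates are given. The lines were tested by limma 3.58.1 under R 4.3.3 (lmFit, then eBayes with trended variance and no covariates) and Benjamini-Hochberg adjustment over all 34316 probe sets, with 0.05 as the threshold. The procedure was tested on simulated data. Figures used Python 3.11.15 and matplotlib 3.10.9.

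The members and lists were chosen with earlier results of these data known. Named were all TIP probe sets; in each other list those past the threshold or the one with the smallest p, and the brightest; and the 3 nearest profiles to the TIP sets with the highest mean and the smallest p. Alternatives covered normalization, filter, offset, variance model, array weights, the replicate number or the third arrays as a block, replicates 1 and 2 alone, single arrays left out, a stricter threshold and 1 probe set per gene.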

Additional observations from a re-analysis of the deposited data

How the results depend on the processing

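No TIP probe set passed an adjusted p of 0.05 in limma in any of 16 alternative fits, and the lowest adjusted p per fit ran from 0.0765 to 0.663. The stricter threshold of 0.01 on the main fit is not counted, since it must give 0 where none passed 0.05. Over the array the count of changed probe sets was 317. Array weights gave 532, a fit with no variance trend 80, a block for the replicate 3 arrays 606 and a threshold of 0.01 gave 122. Leaving out single arrays gave 118 (wild-type replicate 2), 177 (wild-type replicate 3), 138 (dst replicate 1), 179 (dst replicate 2) and at most 280. A stricter threshold and fewer samples lower the count by construction, and otherwise the cause was not tested. With the replicate block the count was 463 and no TIP probe set passed, with a lowest adjusted p of 0.107 in limma. Deviations from the group means correlated between the lines at 0.05, 0.05 and 0.20 for replicates 1, 2 and 3. Replicate 1 of either line correlated at 0.06 with replicate 2 of the other, so these numbers do not pair the samples. Wild-type replicate 3 correlated at -0.11 with dst replicates 1 and 2, and dst replicate 3 at -0.10 with wild-type replicates 1 and 2. The deviations of the 3 arrays of a line sum to 0, so these negative values go with the 0.20 by construction. They are not a separate observation. The 0.20 between the replicate 3 arrays was the highest correlation between the lines, for a reason that was not tested.

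Of 176 comparisons of single TIP values with alternatives, 159 kept their sign and 17 turned. They belong to the sets named next. The _a_at set of OsTIP1;1 turned to 0.0338 with quantile normalization and 3.5e-04 with array weights, and leaving out single arrays gave -0.159 to 0.0741. OsTIP3;2 turned to 0.0088 with array weights and 0.024 from replicates 1 and 2 alone, and single arrays left out gave -0.273 to 0.0693. With 1 array left out OsTIP3;1 ranged from -0.25 to 0.123, OsTIP4;2 from -0.145 to 0.378, the dim set of OsTIP4;1 from -0.98 to 0.23 and OsTIP1;2 from -0.00323 to 0.531. The TIP median ranged from 0.0177 to 0.0741. The median of the other aquaporins was 0.0573 from replicates 1 and 2 alone and ranged from 0.00449 to 0.0505, and that of tonoplast pumps and carriers was -0.0767 with array weights and ranged from -0.0805 to 0.0535. The cause was not tested. Without detection calls the signal over background is unknown, which limits folds of the dim sets.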
